A study of Homo sapiens with 3 samples.

Results

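Remote YBX1 peaks are called peaks, taken as RNA bound by YBX1, that lie far from every other peak on their chromosome. They were chosen by their distance and width in the deposited peak list. A peak was a member if it lay on chromosomes 1 to 22 or X, was narrower than 1000 bases (end minus start), and had no other peak of any width within 100000 bases of either edge. This gave 800 members, which is 4.98% (95% Wilson interval 4.66 to 5.33%) of the 16054 peaks below 1000 bases on these chromosomes and 4.49% of all 17802 peaks. Members covered 398 kb, or 3.49% of the bases under all peaks. The remaining 15254 peaks below 1000 bases served as the comparison and are called other peaks.

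The RNA came from T24, a long-established line of human bladder cancer cells, made to overexpress Flag-tagged YBX1, which applies to all groups. The groups were the RIP input (lysate kept before the capture), the YBX1 RIP (RNA recovered on anti-Flag beads and trimmed there by micrococcal nuclease) and the bisulfite YBX1 RIP (such RNA treated to read m5C), with 1 library each. The source label of the bisulfite library names T25 where its characteristics give T24. With 1 peak list and no replicate, no test between conditions is possible, and the variation between cultures is unknown. Only 3 values describe each peak, namely its chromosome, start and end on build hg19. Peak height, read depth, strand and gene are unknown, so no statement on how strongly a member was bound can be made.

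YBX1 is a cold-shock-domain protein that coats messenger RNA in the cytoplasm and takes part in packaging, translation and stability of transcripts. Its cold-shock domain also recognises 5-methylcytosine (m5C) in RNA, and in bladder carcinoma this reading of m5C is known for the stabilisation of oncogenic mRNA. A peak in such an experiment is a stretch of the genome where reads from captured RNA pile up. A spliced mRNA with several bound exons therefore tends to give several peaks along its gene. Some genes span more than the distance used here, so a remote peak may still share its gene with another peak. Which genes or exons lie under the members was not analysed here, because the RefSeq genes provided have GRCh38.p14 positions and no conversion was made. For the same reason no sequence of a member is shown.

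The members were far from other peaks by a wide range of distances. The nearest neighbour of a member lay at a median of 257 kb, with quartiles of 153 and 516 kb, a lowest value of 100615 bases and a highest of 5.42 Mb. A total of 318 members (39.75%) had their nearest neighbour between 100 and 200 kb away, and 104 members (13%) were more than 1 Mb from any other peak. These distances follow from the rule and are given as a description. They show that the set runs from peaks just past the threshold to peaks that stand alone over megabases.

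The most isolated member lay on chromosome 11 from 27493802 to 27494238, with empty stretches of 7.35 Mb before it and 5.42 Mb after it. It was 436 bases wide. On chromosome 10, the member from 88854006 to 88854431 (425 bases) was 6.59 Mb from the peak before it and 4.70 Mb from the one after. The X chromosome held the third, from 30872197 to 30872729, which was 532 bases wide and 4.51 Mb from its nearest neighbour. None of these 3 was at the smallest width or close to the 1000-base limit.

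The next members in order of distance were found on chromosome 5 from 60789940 to 60790384 (444 bases, nearest neighbour at 4.43 Mb) and on chromosome 3 from 105572117 to 105572561 (444 bases, 4.00 Mb). Chromosome 13 followed with 92000041 to 92000519, 478 bases wide, which had 14.1 Mb without a peak before it and 3.92 Mb after it. The member on chromosome 2 from 138829765 to 138830165, at 3.62 Mb, was the only one of the 10 most isolated that was exactly 400 bases wide. The last 3 of the 10 were a peak of 729 bases on chromosome 10 (17271315 to 17272044, 3.53 Mb), one of 404 bases on the X chromosome (92477789 to 92478193, 3.46 Mb) and one of 401 bases on chromosome 6 (97629672 to 97630073, 3.46 Mb). The 10 lay on 8 chromosomes, with chromosome 10 and X each holding a pair, and their median width was 440 bases.

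The rule separates peaks at 100000 bases, and the peaks on either side of that value were as follows. Just inside it were peaks on chromosome 5 (37350087 to 37350516, nearest neighbour at 100615 bases), chromosome 10 (121085859 to 121086298, 100632 bases), chromosome 12 (123970017 to 123970487, 100846 bases), chromosome 5 again (150561815 to 150562215, 100979 bases) and chromosome 6 (108882186 to 108883051, 101631 bases). Just outside it were peaks on chromosome 12 (125570757 to 125571157, 99809 bases), chromosome 15 (59664620 to 59665069, 99803 bases), chromosome 1 (8525808 to 8526238, 99661 bases), chromosome 11 (74647779 to 74648193, 99569 bases) and chromosome 13 (35926127 to 35926645, 99451 bases). Each set of 5 included 1 peak of exactly 400 bases. The widths were 400 to 865 bases inside and 400 to 518 bases outside.

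Members were often much closer to one neighbour than to the other. Of the 800, 787 had a peak on both sides and 13 were the first or last peak of their chromosome. Over these 787, the farther neighbour lay at a median of 1027 kb, and the median ratio of the farther to the nearer distance was 2.80. The ratio was above 10 for 101 members and below 1.5 for 163. The first member on chromosome 18, from 158493 to 158893, had no peak before it and 2.50 Mb without a peak after it.

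**Figure D1:**
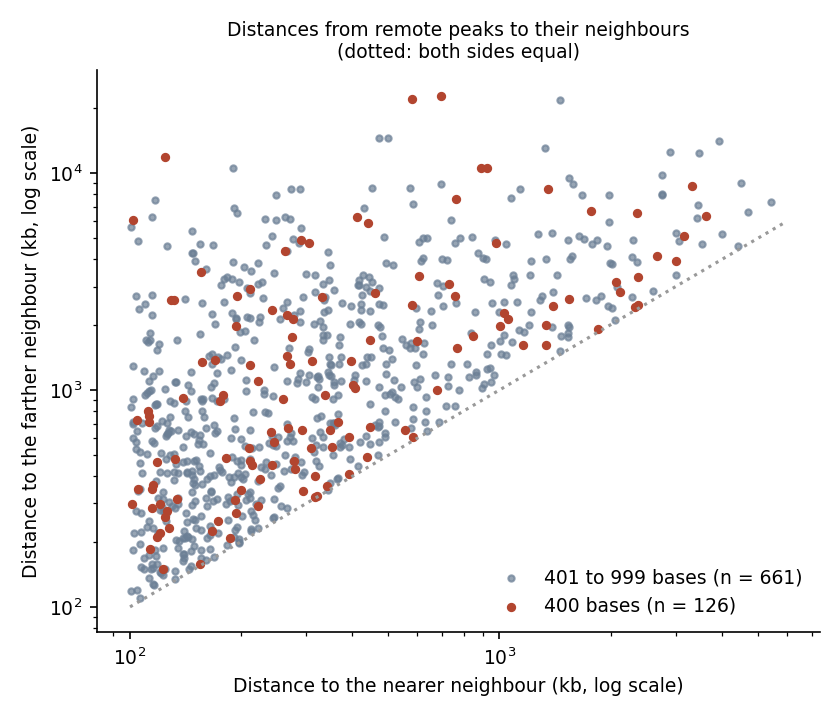
Distance from each of the 787 remote peaks with a neighbour on both sides to its nearer (x axis) and farther (y axis) neighbour, in kb on log scales. Points mark 126 members of 400 bases and 661 wider ones. Members of 400 bases occur up to a nearer distance of 3.62 Mb and wider ones up to 5.42 Mb, and the farther distance reaches 22.7 Mb. Distances include any unsequenced stretch of hg19, since none was masked.

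Many remote peaks were next to each other in the list, which the rule itself favours. A direct neighbour of a member already has a gap over 100 kb toward that member, so these counts are a description. A total of 446 members had a member as a direct neighbour, 334 on one side and 112 on both, while 354 had none. Consecutive members formed 64 stretches of 3 or more, with 240 members in them. The longest held 7 members each, on chromosome 5 from 106716518 to 111755311 (5.04 Mb) and on chromosome 9 from 39238826 to 43756388 (4.52 Mb). In the stretch on chromosome 9, 3 of 7 members were exactly 400 bases wide and the widest was 612 bases. In that on chromosome 5, 1 of 7 was 400 bases wide and the widest was 967 bases. Stretches of 6 members followed on chromosome 6 (130343220 to 137113375) and chromosome 7 (57071955 to 66105184), the latter with no member at 400 bases.

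The list as a whole leaves much room for such peaks. Gaps over 100 kb made up 14.9% of the 17771 gaps between neighbouring peaks, yet they held 94.0% of the distance between the first and the last peak of the 23 chromosomes. Unsequenced stretches of hg19, where no peak can be called, were not subtracted from these gaps. Blocks of 10 Mb that contained any peak below 1000 bases numbered 303, of which 262 held a member, with a median of 3 among those 262. The most members in a block was 9, on chromosome 15 from 50 to 60 Mb, where they made up 14.1% of 64 peaks below 1000 bases. From 20 to 30 Mb on chromosome 18, 7 of 8 such peaks were members. Members therefore occurred both in blocks of 10 Mb with many other peaks and in blocks with almost none.

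Remote peaks were at the smallest width of the list more often than other peaks. No peak was narrower than 400 bases, and 129 of 800 members (16.1%, 95% Wilson interval 13.7 to 18.8%) were exactly 400 bases wide. Among other peaks the count was 1009 of 15254 (6.61%, 6.23 to 7.02%). The difference was 9.51 percentage points (Newcombe interval 7.09 to 12.2), and the ratio of the shares was 2.44. Over all peaks below 1000 bases, 7.09% were at this width. Seen from the other side, 11.3% (9.62 to 13.3%) of the 1138 peaks of 400 bases were remote, against 4.50% (4.18 to 4.84%) of the 14916 wider ones. These intervals reflect counting error alone, as if each peak were independent. No test is given, since members and comparison come from 1 list and the rule itself used positions and widths.

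The excess over all other peaks was mainly at the single width of 400 bases, with a small part over the widths just above it. Widths of 401 to 409 bases were found in 10.4% of members and 8.80% of other peaks, a difference of 1.58 points. Per width, the count at 400 bases was 14.5 times the mean count over 401 to 410 bases among members, and 6.85 times among other peaks. Members had correspondingly fewer peaks of 401 to 449 bases (33.4% against 37.7%) and of 450 to 499 bases (17.9% against 21.1%). They had slightly more of 500 to 599 bases (16.75% against 15.1%) and fewer of 800 to 999 bases (4.75% against 6.90%). Other peaks with no neighbour within 5 kb matched members just above the smallest width, with 10.4% at 401 to 409 bases. In that set the count at 400 bases was 8.73 times the mean count over 401 to 410 bases.

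**Figure D2:**
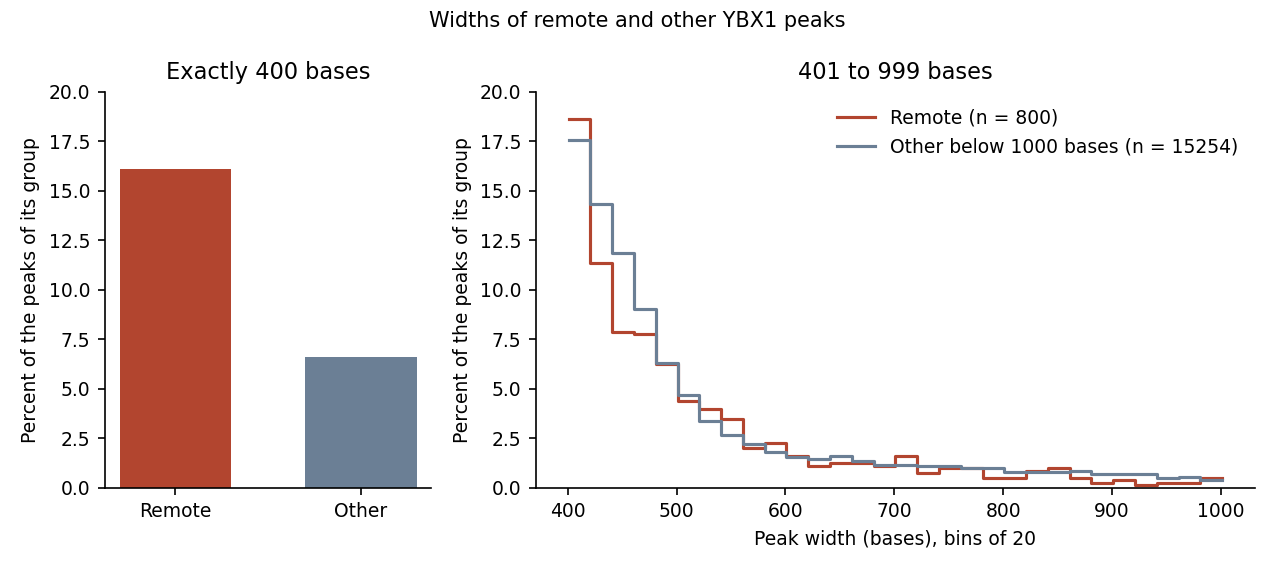
Percent of remote peaks (red) and of other peaks below 1000 bases (grey-blue) at exactly 400 bases (left) and in bins of 20 bases from 401 bases on (right). The bars at 400 bases are 16.1% and 6.61%, whereas the lines run close together from about 500 bases on.

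Apart from the smallest width, the widths of remote peaks were close to those of other peaks. The median was 451 bases for members (95% binomial interval of the median 441 to 459), with quartiles of 408 and 532 bases. For other peaks it was 460 bases (458 to 461), with quartiles of 422 and 548 bases. With peaks of exactly 400 bases left out, the order turned: the 671 remaining members had a median of 470 bases and the 14245 remaining other peaks 466 bases. It also turned, with the peaks of 400 bases kept, against the other peaks that had no neighbour within 5 kb, whose median was 447 bases. Members below 500 bases made up 67.4%, against 65.5% of other peaks.

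The widest members approached the limit of 1000 bases. They lay on chromosome 3 from 135914172 to 135915170 (998 bases), chromosome 7 from 105254131 to 105255128 (997 bases), chromosome 2 from 114349079 to 114350071 (992 bases), chromosome 1 from 178062948 to 178063932 (984 bases) and chromosome 5 from 107006390 to 107007357 (967 bases). Their nearest neighbours were 1.82 Mb, 573 kb, 344 kb, 189 kb and 289 kb away. A further 55 peaks met the distance rule but were at least 1000 bases wide and so were not members. The narrowest of these lay on chromosome 1 from 85647750 to 85648751 (1001 bases) and on the X chromosome from 47775626 to 47776640 (1014 bases). Such wide peaks were 6.43% of the 855 peaks of any width that met the distance rule, and 9.78% of all peaks on the 23 chromosomes.

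The share of peaks at 400 bases was higher at greater distances, in steps rather than only at 100 kb. It was 4.17% (3.67 to 4.74%) of 5415 peaks with a neighbour within 1 kb and 6.17% (5.56 to 6.85%) of 5347 with the nearest at 1 to 5 kb. The share was then level at 10.1% (9.05 to 11.3%) from 5 to 20 kb, 9.94% (8.30 to 11.9%) from 20 to 50 kb and 10.2% (8.00 to 13.0%) from 50 to 100 kb. All other peaks with no neighbour within 5 kb had 453 of 4492 (10.1%, 9.24 to 11.0%) at 400 bases. The difference between members and these was 6.04 percentage points (3.49 to 8.88), smaller than that from all other peaks. Isolated peaks short of 100 kb thus lay between peaks with close neighbours and the members.

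Among the members, the share at 400 bases varied with distance, with wide intervals. It was 12.7% (8.75 to 18.1%) of 197 members at 100 to 150 kb and 12.4% (7.66 to 19.4%) of 121 at 150 to 200 kb. From 200 to 300 kb it was 19.2% (13.4 to 26.8%) of 130 members, from 300 to 500 kb 16.3% (11.2 to 23.1%) of 147, and from 500 kb to 1 Mb 16.8% (10.8 to 25.3%) of 101. The 104 members over 1 Mb from any peak had the highest share, 22.1% (15.2 to 31.0%). The intervals of neighbouring classes overlapped, so the order of the 6 classes cannot be read from these counts. The interval of other peaks at 50 to 100 kb (8.00 to 13.0%) also overlapped those of members at 100 to 150 kb and 150 to 200 kb. The counts thus do not separate the nearest members from those other peaks. Members at 400 bases had their nearest neighbour at a median of 293 kb and wider members at 245 kb.

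**Figure D3:**
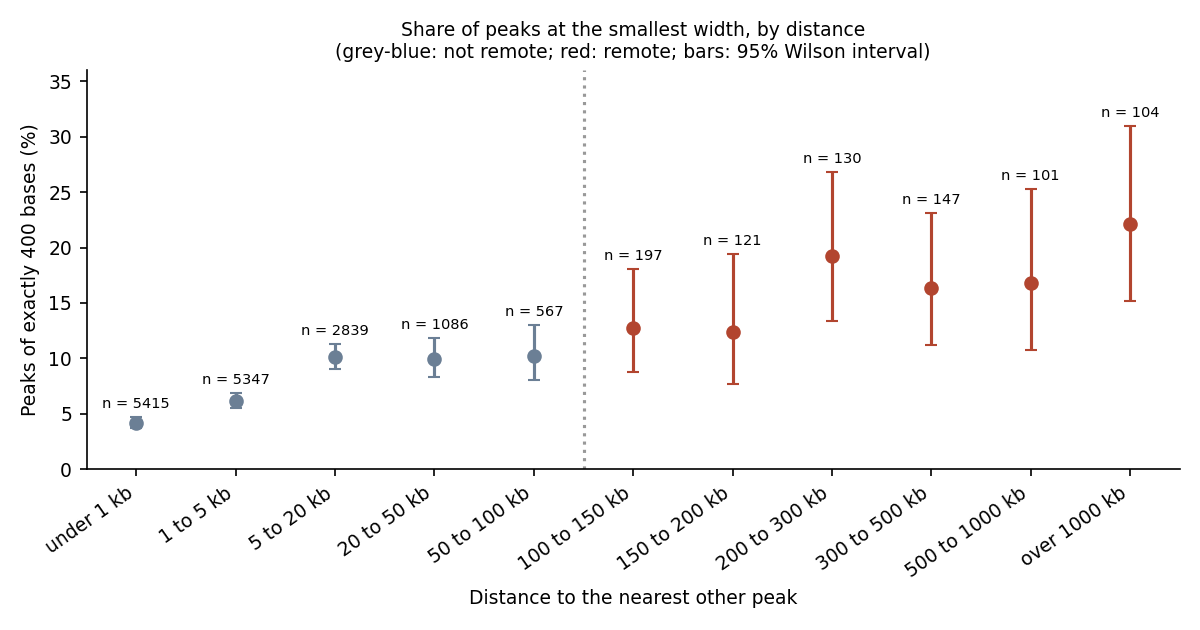
Share of peaks of exactly 400 bases (y axis, percent) by the distance to the nearest other peak (x axis), for peaks below 1000 bases, with 95% Wilson intervals and the number of peaks. Classes left of the dotted line (grey-blue) reach 10.2% and those right of it (red, the members) lie between 12.4 and 22.1%. The intervals of the classes next to the line overlap.

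Width above the smallest value followed another course. The median of peaks wider than 400 bases was 485 bases with a neighbour within 1 kb, 459 bases at 1 to 5 kb and between 455 and 461 bases from 5 to 100 kb. Members wider than 400 bases had a median of 486.5 bases at 100 to 150 kb and 479 bases at 150 to 200 kb. In the 4 classes farther out it lay between 455 and 469 bases. Peaks next to others and the nearer members thus had similar medians, with lower ones in between.

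The peaks on either side of members were at 400 bases about as often as the other peaks with no neighbour within 5 kb (10.1%). These sets can share peaks, and a peak beside a member may have a close neighbour on its far side. There were 1024 direct neighbours that were not members themselves, of which 900 were below 1000 bases. Of these, 90 (10%) were exactly 400 bases wide, and their median width was 457.5 bases. The median was 460 bases for all other peaks and 447 bases for those with no neighbour within 5 kb.

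Every one of the 23 chromosomes carried remote peaks, from 7 on chromosome 21 and 8 on chromosome 20 to 81 on chromosome 1. As a share of a chromosome's peaks below 1000 bases they were most frequent on chromosome 18, at 9.09% (5.83 to 13.9%), and next on chromosomes 7 (8.15%, 6.37 to 10.4%) and 2 (8.15%, 6.53 to 10.1%). The lowest shares were 1.82% (0.926 to 3.55%) on chromosome 20, 2.01% (1.27 to 3.15%) on chromosome 19 and 2.06% (1.40 to 3.02%) on chromosome 17. The highest share was 4.99 times the lowest. Chromosome 18 had 18 members from 198 peaks and its interval includes the shares of the 8 chromosomes next in order, so its first place is not firm. On chromosome 18 the first and last member (158493 to 158893 and 72601768 to 72602168) were both 400 bases wide. On chromosome 20 they were 557 bases (306695 to 307252) and 414 bases wide (49126883 to 49127297).

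Chromosomes with many peaks had a lower share of remote ones. The 5 chromosomes with the most peaks below 1000 bases per 10 Mb (19, 17, 22, 16 and 15, in this order) had shares of 2.01 to 3.87%. The 5 with the fewest (4, 5, X, 13 and 18) had shares of 6.55 to 9.09%. Spearman's rho between the share and the density was -0.84 over the 23 chromosomes. This is a description, since both quantities contain the same peak counts and a denser chromosome leaves less room for gaps of 100 kb.

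Counted per length, remote peaks were spread more evenly than peaks in general. They numbered 1.28 to 5.71 per 10 Mb between a chromosome's first and last peak, a ratio of 4.45, against 25.5 to 153 per 10 Mb for all peaks below 1000 bases, a ratio of 6.02. Chromosome 22 was highest with 5.71 per 10 Mb, from 20 members, and chromosome 20 lowest with 1.28. The 5 densest chromosomes had 2.34 to 5.71 and the 5 sparsest 1.91 to 2.32 per 10 Mb. In these 10, dense chromosomes thus held at least as many remote peaks per length as sparse ones. A smaller part of their peaks was remote. This did not hold throughout beyond the 10: chromosomes 21 and 20, next in density, had 1.83 and 1.28 remote peaks per 10 Mb, from 7 and 8 members. Both values lay below those of the 5 sparsest. Chromosome 14, which followed these in density, had 3.94 per 10 Mb. Over the 23 chromosomes, Spearman's rho between remote peaks per 10 Mb and density was 0.41, again as a description.

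**Figure D4:**
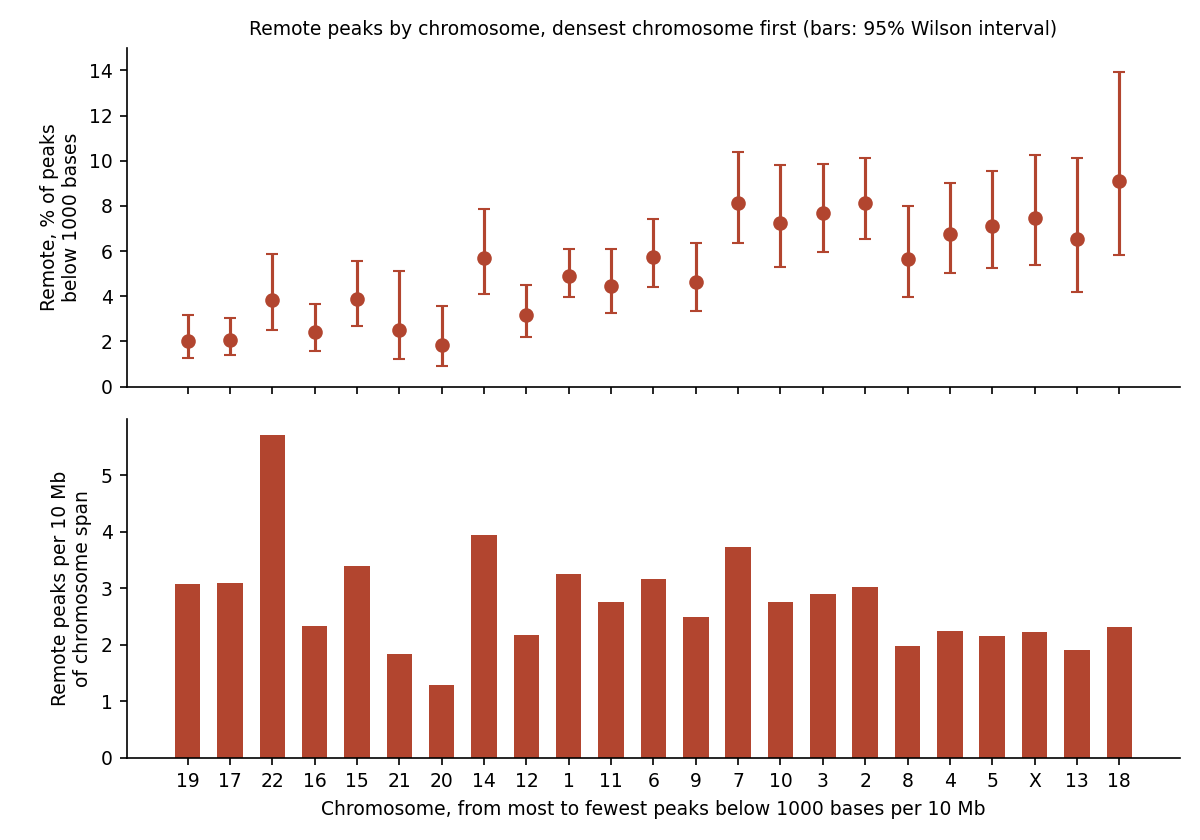
Remote peaks as a percent of the peaks below 1000 bases (top, with 95% Wilson intervals) and per 10 Mb between the first and last peak (bottom) for 23 chromosomes, ordered from the most to the fewest peaks per 10 Mb. Shares run from 2.01% on chromosome 19 at the left to 9.09% on chromosome 18 at the right, and the tallest bar is that of chromosome 22.

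The higher share at 400 bases was found on nearly all chromosomes. It was higher among members than among other peaks of the same chromosome on 22 of 23, the exception being chromosome 15 with 1 of 27 members (3.70%) against 6.87% of other peaks. Among the 18 chromosomes with at least 20 members, the members' share ran from that value to 25.7% on chromosome 9 (9 of 35 members, against 7.32% of other peaks). Chromosome 22 had 25% (5 of 20, against 5.59%) and chromosome 14 had 23.5% (8 of 34, against 5.17%). Chromosome 2 had the largest number of such members (16 of 73, 21.9% against 8.99%), and chromosome 4 had 8 of 42 (19.0% against 6.38%). Some differences were small or rested on few peaks, as on chromosome 3 (5 of 56 members, 8.93% against 7.75%). Chromosome 20 had 1 of 8 members (12.5% against 9.98%). The share of other peaks lay between 4.21 and 12.2% over the 23 chromosomes. Weighted by members, the within-chromosome difference was 9.15 percentage points, close to the pooled value of 9.51. Median width gave a less uniform picture: it was lower among members on 16 chromosomes and higher on 7.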

How the data were processed

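T24 cells with Flag-tagged YBX1 gave 1 library each of RIP input, YBX1 RIP and bisulfite YBX1 RIP. The list of peaks used here, as the authors deposited it, holds genome positions: chromosome, start and end, per the file headers. Trimmomatic, MACS2 and build hg19 are named in the submitters' processing notes. Not given in the sources used here are versions, aligner, peak threshold, any minimum width and which libraries were used for peak calling. Positions are printed as deposited.

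Distances were taken from edge to edge to the next peak of any width, and a missing neighbour at a chromosome end counted as none. The 1740 peaks of at least 1000 bases served only as neighbours, and 2 peaks on chromosome Y and 6 mitochondrial peaks were left out. Shares have 95% Wilson intervals, differences of shares Newcombe intervals and medians binomial intervals, all for counting error only. Sequencing depth per peak is unknown.

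Regions named were the 10 most remote, the 5 widest, 5 on each side of the distance threshold, those next to the width limit, and the first and last member on the chromosomes with the highest and lowest share. The narrowest wide peaks, stretches and blocks were added after their values were seen. The members and lists were chosen with earlier results of these data known. Distance functions were tested on simulated data, where all 460 planted remote peaks among 9660 were found, with 0 false ones. Python 3.11.15, numpy 2.4.6, pandas 2.3.3, scipy 1.17.1 and matplotlib 3.10.9 were used.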

Additional observations from a re-analysis of the deposited data

How the results depend on the processing

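Of 46 alternative values, 37 planned and 9 chosen after seeing the data, 38 stayed close to the reported ones, 6 moved and 2 changed direction. A distance of 50 kb gave 1367 remote peaks and 200 kb gave 482, and a change in this direction follows from the rule. The share at 400 bases was 13.7% with 50 kb and 18.5% with 200 kb. Median width was 470 bases without peaks of 400 bases. The difference in median width, -9 bases as reported, became 4 bases without peaks of 400 bases and also 4 bases against other peaks with no neighbour within 5 kb. The second is against a set with fewer close neighbours, and the cause was not tested. Against that set the difference in share at 400 bases was 6.04 points. It stayed positive under each alternative. With widths of 400 to 410 bases counted together, the share among members was 27.25%. Chromosome 18 had the highest share under each alternative tried. The planned share of members inside genes was not run, because gene positions on hg19 were not used here. No paired analysis was possible because no group has more than 1 library. The read depth needed to detect a neighbour is unknown, as is the number of members that deeper sequencing would bring closer to another peak.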
